A study of Mus musculus with 21 samples.

Results

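The adult globin genes of the mouse were followed through red cell differentiation: Hba-a1 and Hba-a2, which encode the alpha chain of adult hemoglobin, and Hbb-bs and Hbb-bt, which encode its adult beta chain. Members were chosen by gene symbol. Of the 5 symbols named, these 4 were matched among the 22483 genes of the tables. The fifth, Ahsp, which encodes the chaperone that binds free alpha globin, was not analysed here.

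Hemoglobin is a tetramer of alpha and beta chains, each of which carries heme. Red cell precursors make the chains from separate gene clusters on different chromosomes, and free alpha chains are unstable and toxic, so the balance of alpha to beta is watched closely in this lineage. The mouse has duplicated genes for both adult chains, and in the beta cluster Hbb-bs and Hbb-bt belong to the haplotype in which both copies encode the same protein. Heme itself also feeds back on globin: the transcription factor Bach1 is displaced by heme, and the kinase encoded by Eif2ak1 slows translation when heme is short.

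The cells were MEDEP cells of the BRC5 line, mouse erythroid progenitors that grow in culture, so a single line stands for the lineage and no whole tissue was sampled. Polyadenylated RNA was sequenced in strand-specific libraries. In the treated arm cells received 4 U/ml erythropoietin (Epo) for 12 hours together with succinyl acetone (SA), which blocks heme synthesis. In the time course cells received Epo without SA for 12, 24, 36, 48 or 72 hours, after stem cell factor and dexamethasone had been withdrawn. Cells at 0 hours were still growing with stem cell factor and dexamethasone and had no Epo. Each of these 7 groups held 3 biological replicates, 21 libraries in all.

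The members of each pair are nearly identical. The coding sequences of Hba-a1 and Hba-a2 are 429 bases long with the stop codon and differ at 1 base, written C381T (the Hba-a1 base first, counted from 1 at the A of the start codon), and the encoded chains of 142 residues are identical. Those of Hbb-bs and Hbb-bt are 444 bases long and differ at 1 base, C417T (the Hbb-bs base first), and the chains of 147 residues are identical. The windows of 31 bases around these positions are shown because they hold the only coding base by which a read can be given to a gene; the capital marks it. All lie in coding exon 3, in GRCm38 coordinates with the GENCODE annotation, and are written 5′ to 3′ on the gene's strand: chr11:32284328-32284358 on the plus strand for Hba-a1, chr11:32297145-32297175 on the plus strand for Hba-a2, chr7:103826677-103826707 on the minus strand for Hbb-bs and chr7:103812668-103812698 on the minus strand for Hbb-bt.
Hba-a1: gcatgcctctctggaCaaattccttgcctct
Hba-a2: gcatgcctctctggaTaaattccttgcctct
Hbb-bs: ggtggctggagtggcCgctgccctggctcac
Hbb-bt: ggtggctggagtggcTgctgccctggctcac

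Whole transcripts share less. The main transcript of Hba-a1 is 699 bases long and that of Hba-a2 554 bases, and of the stretches of 31 bases in each, 71.3% of those of Hba-a1 and 91.0% of those of Hba-a2 are shared with the partner. For Hbb-bs (628 bases) 66.9% and for Hbb-bt (703 bases) 59.4% are shared. The deposited counts carry the trace of this sharing. No single gene of the 4 had a whole-number count in any of the 21 libraries, whereas the sum of each pair was whole in 21 of 21 (tolerance 0.001). The level of each pair therefore rests on reads, and the level of a single gene on how the authors' counting divided the reads that fit both. Summed values are given first below, and single-gene values are uncertain to that extent.

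The genes lie in their clusters as Hba-a1 (chr11:32283511-32284465, plus strand), Hba-a2 (chr11:32296489-32297298, plus strand), Hbb-bt (chr7:103812524-103813996, minus strand) and Hbb-bs (chr7:103826534-103828096, minus strand). The 250 bases before the RefSeq start (GRCm38.p6) of 3 of them are printed because all 4 genes move together in the data. The RefSeq starts of all 4 genes lie inside the GENCODE positions just given, so each window reaches into its gene. That of Hba-a1 ends at chr11:32283671. Capitals mark 4 short motifs on either strand. CACCC is the core of elements bound by Krüppel-like factors. CCAAT is bound by the factors named after it and reads ATTGG on the other strand. GATAA is the core bound by GATA factors, and TATAA, which reads TTATA on the other strand, is that of the TATA-binding protein. In Hbb-bt a reversed copy directly abuts a forward CCAAT, with no overlap.
Hba-a2: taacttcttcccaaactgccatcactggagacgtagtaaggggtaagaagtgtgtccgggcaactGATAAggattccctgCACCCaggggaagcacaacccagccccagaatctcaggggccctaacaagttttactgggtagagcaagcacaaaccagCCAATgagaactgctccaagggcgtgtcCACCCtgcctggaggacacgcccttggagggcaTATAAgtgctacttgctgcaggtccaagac
Hbb-bs: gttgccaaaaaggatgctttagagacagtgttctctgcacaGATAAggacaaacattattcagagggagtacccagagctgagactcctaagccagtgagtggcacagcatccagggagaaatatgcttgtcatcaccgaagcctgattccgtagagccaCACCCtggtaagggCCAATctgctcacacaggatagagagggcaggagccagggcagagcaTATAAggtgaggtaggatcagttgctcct
Hbb-bt: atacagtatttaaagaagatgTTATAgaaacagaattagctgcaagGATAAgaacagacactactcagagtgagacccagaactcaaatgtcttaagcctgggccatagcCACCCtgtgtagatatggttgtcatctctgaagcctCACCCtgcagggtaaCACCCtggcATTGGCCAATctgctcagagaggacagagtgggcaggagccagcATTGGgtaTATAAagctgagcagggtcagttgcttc

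The window of Hba-a1 was identical to that of Hba-a2 over all 247 aligned bases and is not printed, whereas those of Hbb-bs and Hbb-bt matched at 178 of 243 aligned bases (73.3%). Each of the 4 windows held all 4 motifs. TATAA began 27 bases before the start in Hba-a1, 30 in Hba-a2, 29 in Hbb-bs and 28 in Hbb-bt. CCAAT began 88, 91, 76 and 75 bases before it in the same genes. These letters are common: among 32817 mouse promoters of this length CACCC occurred in 52.0%, CCAAT in 33.8%, GATAA in 22.6% and TATAA in 22.8%. A match is a description of the sequence only.

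The libraries held 16.7 to 39.3 M estimated counts each. The summed level of 8 erythroid markers was 799 to 869 normalized counts-per-million (CPM) at 0 hours, 4397 to 4885 at 12 hours with SA, 6088 to 6557 at 12 hours, 15598 to 16750 at 24 hours, 45874 to 57285 at 36 and 48 hours and 32526 to 51770 at 72 hours. Markers of lymphocytes (at most 1.44 CPM, 6 genes), neutrophils (7.88, 6 genes), macrophages (11.5, 6 genes), pluripotent cells (2.60, 4 genes) and mast cells and basophils (35.9, 6 genes) stayed low. The 6 megakaryocyte and platelet markers moved with the globins up to 48 hours. Their sum was 17.4 to 17.7 CPM at 12 hours with SA, 14.2 to 18.7 at 0 hours, 19.5 to 21.3 at 12 hours, 93.6 to 108 at 24 hours, 1072 to 1373 at 36 hours, 1508 to 1647 at 48 hours and 590 to 989 at 72 hours. Itga2b reached 1629 CPM and Gp9 45.0 CPM, while Pf4 (0.194) and Gp1bb (0.0226) stayed at or below these values and Ppbp was at 0. The part of these markers in the globin changes was not tested. Of the 8 stromal markers, the sum was 25.2 CPM in replicate 1 at 36 hours and at most 1.71 CPM in every other library, and its part in any result was not tested. Since this is bulk RNA, fewer cells that express a globin and less globin RNA per cell cannot be told apart. Libraries that stood apart were replicate 3 at 48 hours and replicate 3 at 72 hours, which divided both pairs differently from the other replicates of their time (values below). Results that rest on them are given with and without them.

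Together the 4 adult globin genes took a larger share of the counts at each later time. They made up 0.0612 ± 0.0143% of all counts at 0 hours, 1.27 ± 0.107% at 12 hours, 4.76 ± 0.441% at 24 hours, 22.5 ± 0.224% at 36 hours, 27.5 ± 1.39% at 48 hours and 35.2 ± 3.07% at 72 hours (mean ± SD; every group has n = 3). At 12 hours with SA the share was 0.937 ± 0.0953%. The values of the 6 times did not overlap. In TPM (transcripts-per-million), which divides counts by a length, the share was larger. The 4 genes held 0.163 ± 0.0386% at 0 hours, 15.0 ± 1.37% at 24 hours and 70.3 ± 0.867% at 36 hours. They held 77.1 ± 6.27% at 48 hours and 84.2 ± 4.70% at 72 hours. In TPM the libraries of 36 and 48 hours overlapped, as did those of 48 and 72 hours. The count of a gene divided by its TPM, set against the median gene of the library, also differed between times: it was 0.0752 at 72 hours and 0.248 at 0 hours for Hba-a1, 0.0616 and 0.196 for Hba-a2, 0.0660 and 0.182 for Hbb-bs, and 0.0853 and 0.221 for Hbb-bt. Its part in the TPM shares was not tested.

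**Figure D1:**
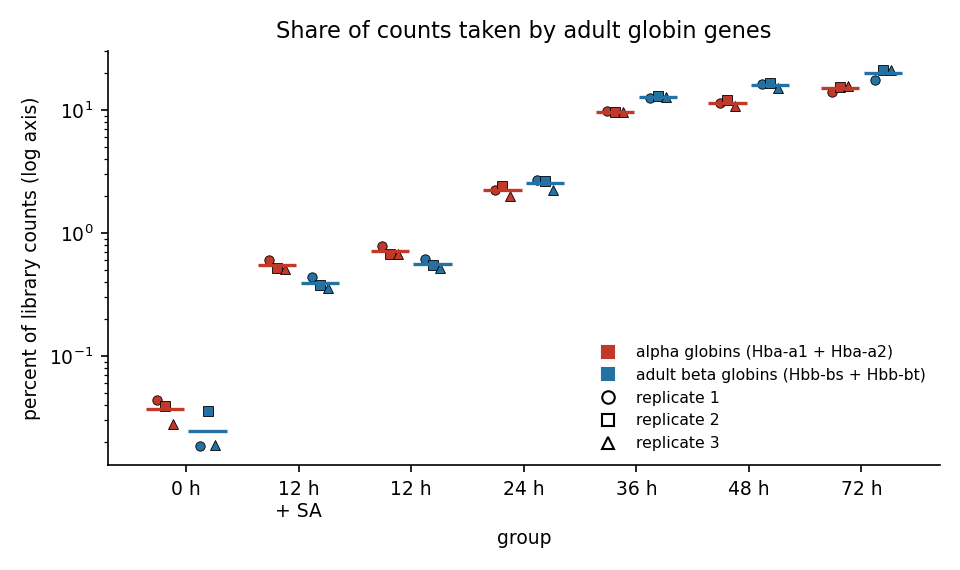
Percent of all counts of a library (log axis) taken by the alpha globin pair and by the adult beta globin pair in each of the 7 groups; points are libraries, with a marker shape per replicate number, and bars are means. Alpha lies above beta at 12 hours with SA and at 12 hours, and beta lies above alpha from 24 hours on; the 2 pairs climb together from under 0.05% at 0 hours to 15.1% and 20.1% at 72 hours.

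The alpha pair held 0.0436, 0.0394 and 0.0277% of the counts in replicates 1, 2 and 3 at 0 hours. It held 0.781, 0.680 and 0.677% at 12 hours, and 2.25, 2.40 and 2.01% at 24 hours. Later it held 9.92, 9.64 and 9.59% at 36 hours, 11.4, 12.1 and 10.8% at 48 hours, and 14.1, 15.5 and 15.7% at 72 hours. Every library of a later time was above every library of the time before it. The adult beta pair held 0.0183, 0.0358 and 0.0189% at 0 hours, 0.615, 0.546 and 0.523% at 12 hours, and 2.71, 2.66 and 2.24% at 24 hours. It held 12.6, 13.1 and 12.7% at 36 hours, 16.4, 16.6 and 15.1% at 48 hours, and 17.5, 21.4 and 21.3% at 72 hours. Here too no neighbouring times overlapped in the share of counts, and replicate 2 at 0 hours was the highest of its group. Counting error was small beside this: the widest 95% Wilson interval of a pair's share reached 2.56% of the value to either side, which covers counting error only.

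Each pair rose in every step of the course. In the comparison of 12 hours with 0 hours, the alpha pair averaged 4458 ± 436 CPM at 12 hours and 222 ± 52.9 CPM at 0 hours, a log2 change of 4.33 ± 0.19 (SE) with an adjusted p of 1.94e-13 in edgeR's quasi-likelihood test with Benjamini-Hochberg adjustment. The adult beta pair averaged 3512 ± 350 CPM at 12 hours and 147 ± 60.7 CPM at 0 hours, a change of 4.58 ± 0.25 (adjusted p = 3.85e-12). In later steps the scales part: CPM are normalized on the bulk of the genes, whereas a share is taken of all counts. For 36 hours against 24 hours the alpha pair rose by 3.13 ± 0.18 on the normalized log2 scale and by 2.14 as a share of counts, and for 72 hours against 0 hours by 10.52 ± 0.25 and 8.70. The median log2 change of all genes tested was -0.033 and -0.13 on the normalized scale in these comparisons and -1.84 and -3.26 in log2(TPM + 1).

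All 4 genes were called higher at 12 hours than at 0 hours, where 25.3% of the 12360 genes tested were called higher. Hbb-bt rose most, by 5.28 ± 0.25 on the log2 scale, to 2035 ± 221 CPM at 12 hours against 52.4 ± 8.70 CPM at 0 hours. Hba-a1 rose by 4.77 ± 0.41, to 3293 ± 390 CPM at 12 hours against 121 ± 35.9 CPM at 0 hours. Hbb-bs rose by 3.97 ± 0.30 and Hba-a2 by 3.52 ± 0.33. The largest adjusted p of the 4 was 1.58e-08 (edgeR). All 4 were also called higher at 24 hours than at 12 hours (19.1% of all genes called higher) and at 36 hours than at 24 hours (34.2%). At 24 hours the rise was 2.89 ± 0.29 for Hbb-bs and 2.74 ± 0.32 for Hba-a2, against 1.95 ± 0.22 for Hbb-bt and 1.40 ± 0.36 for Hba-a1. At 36 hours it was 3.76 ± 0.33 for Hba-a2, 3.52 ± 0.29 for Hbb-bs, 3.02 ± 0.23 for Hbb-bt and 2.16 ± 0.37 for Hba-a1. The joint test of the 5 later times against 0 hours called all 4 genes, as it did 97.6% of all genes tested.

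**Figure D2:**
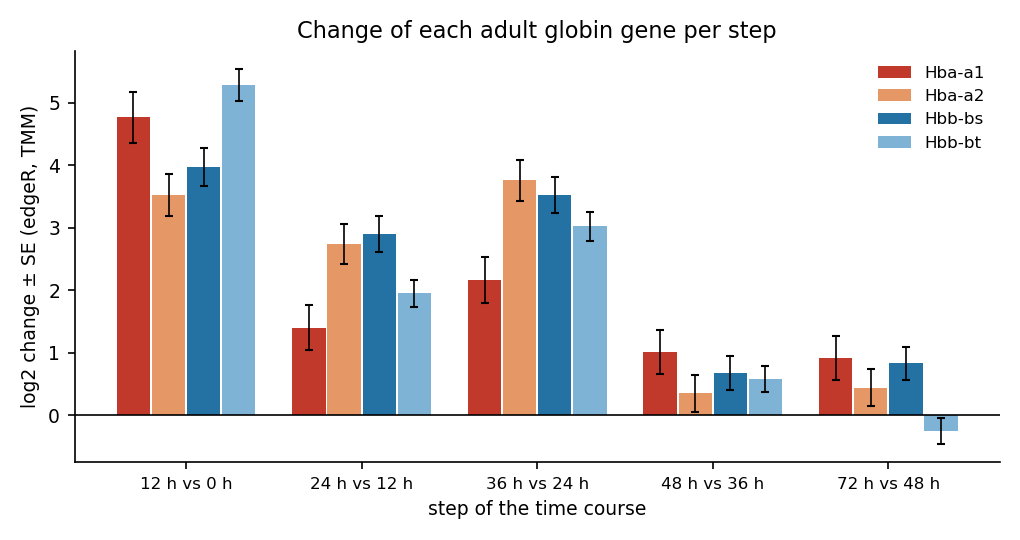
Log2 change of each adult globin gene in the 5 steps of the time course, as bars with the SE of edgeR's fit on TMM-normalized counts. Bars run from 1.40 to 5.28 in the 3 steps up to 36 hours and from -0.25 to 1.01 in the last 2 steps, where Hbb-bt at 72 hours against 48 hours is the bar below 0.

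After 36 hours the rise was smaller. The alpha pair averaged 211318 ± 19144 CPM at 48 hours and 143644 ± 9943 CPM at 36 hours, a log2 change of 0.56 ± 0.17 (adjusted p = 0.00948, edgeR), and the adult beta pair changed by 0.64 ± 0.22 (adjusted p = 0.0174). For 72 hours against 48 hours the changes were 0.63 ± 0.17 for alpha (adjusted p = 0.00313) and 0.56 ± 0.22 for adult beta (adjusted p = 0.0307). In normalized CPM the adult beta libraries of these times overlapped. Replicate 1 at 72 hours had 308228 CPM and replicate 2 at 48 hours 317469 CPM. Of the 4 genes, 3 were called higher at 48 hours than at 36 hours, with 20.0% of all genes called higher; Hba-a2 changed by 0.35 ± 0.30 (adjusted p = 0.356). At 72 hours against 48 hours, 2 were called higher, Hba-a1 (0.91 ± 0.35, adjusted p = 0.0326) and Hbb-bs (0.83 ± 0.27, adjusted p = 0.0118), with 24.7% of all genes called higher. Hbb-bt had a log2 change of -0.25 ± 0.21 (adjusted p = 0.319) in the same step.

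Calls of single genes in these last steps depended on single libraries. At 48 hours against 36 hours, Hba-a1 was lost without replicate 1 or 3 at 36 hours or replicate 3 at 48 hours (0.47 to 1.22 over the fits that left out 1 library). Hbb-bt was lost without the same 3 libraries (0.46 to 0.64), and Hbb-bs without any library of these times other than replicate 3 at 48 hours (0.56 to 0.81). In the step to 72 hours, Hba-a1 was lost without replicate 1 or 2 at 48 hours or replicate 3 at 72 hours, and its change was 0.13 without that last library and 0.13 to 1.43 over these fits. It was also not called when the 6 libraries were fitted alone (1.00, adjusted p = 0.127). Hbb-bs was lost in this step without replicate 3 at 48 hours or replicate 2 at 72 hours (0.67 to 1.01).

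The pairs rest partly on the replicates numbered 3 in the last step. Without replicate 3 at 48 hours and at 72 hours, the change at 72 hours against 48 hours was 0.45 for alpha (adjusted p = 0.0657) and 0.37 for adult beta (adjusted p = 0.245), so neither was called. In the same fit Hbb-bt was called lower at 72 hours than at 48 hours, with a change of -0.52 (adjusted p = 0.0231), Hbb-bs was no longer called (0.62, adjusted p = 0.122), and Hba-a2 was called higher at 48 hours than at 36 hours (0.67, adjusted p = 0.0123). With log2(TPM + 1) in place of counts, in limma, neither pair was called in these steps: alpha changed by 0.073 and adult beta by 0.17 at 48 hours against 36 hours, and by 0.15 and 0.11 at 72 hours against 48 hours. The single genes called in these steps were not called there either. The rises up to 36 hours, and 72 hours against 0 hours, were called for both pairs under every alternative run. At 72 hours against 0 hours all 4 genes were called higher, with 43.3% of all genes called higher, and log2 changes were 11.89 ± 0.42 for Hbb-bs, 10.80 ± 0.45 for Hba-a2, 10.58 ± 0.31 for Hbb-bt and 10.24 ± 0.52 for Hba-a1.

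The balance between the chains crossed a ratio of 1 between 12 and 24 hours. The ratio of alpha to adult beta counts was 2.38, 1.10 and 1.47 in the replicates at 0 hours and 1.27, 1.24 and 1.29 at 12 hours. It was 0.829, 0.901 and 0.894 at 24 hours, 0.785, 0.735 and 0.754 at 36 hours, 0.697, 0.728 and 0.714 at 48 hours, and 0.802, 0.726 and 0.740 at 72 hours. All 6 libraries at 0 and 12 hours lay above 1 and all 12 from 24 hours on lay below it. In TPM it was 1.46 ± 0.604 at 0 hours, 1.15 ± 0.0143 at 12 hours, 0.823 ± 0.0364 at 24 hours, 0.809 ± 0.0440 at 36 hours, 0.754 ± 0.0525 at 48 hours and 0.783 ± 0.136 at 72 hours, so the order of the chains was the same on both scales, except that replicate 2 at 0 hours stood at 0.959 in TPM.

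**Figure D3:**
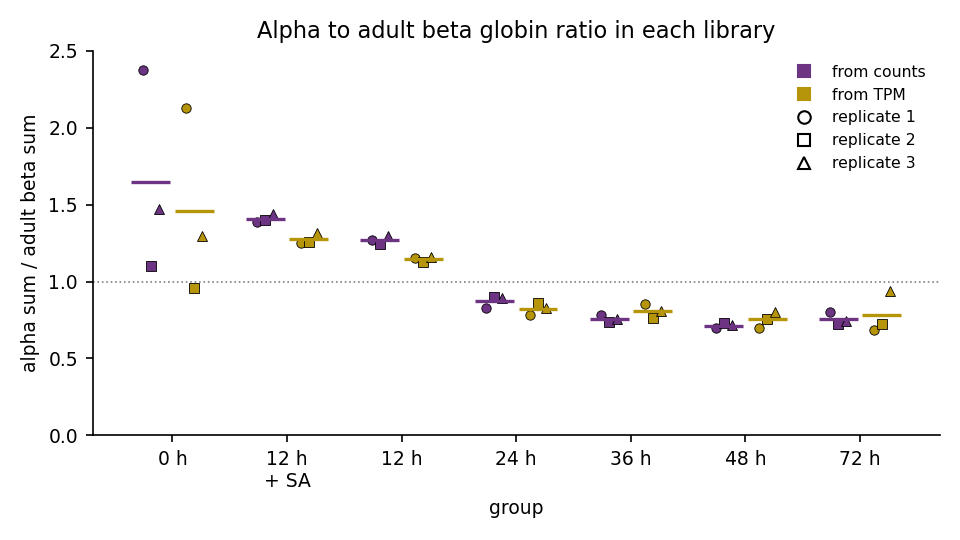
Ratio of the alpha pair to the adult beta pair in each library, from counts and from TPM, with means as bars and a dotted line at a ratio of 1. In counts the libraries at 0 hours, 12 hours with SA and 12 hours lie between 1.10 and 2.38 and those from 24 hours on between 0.697 and 0.901.

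The step that was called is 24 hours against 12 hours. The log2 ratio averaged -0.19 at 24 hours and 0.34 at 12 hours, a difference of -0.54 ± 0.17 (SE; limma over all 21 libraries, adjusted p = 0.0243). With the TPM ratio the difference was -0.48 (adjusted p = 0.0678) and was not called, and it was not called in any of the 6 fits that left out a library of these times (-0.56 to -0.50). At 36 hours against 24 hours the libraries did not overlap and the difference was -0.21 ± 0.17 (adjusted p = 0.291). At 48 hours against 36 hours it was -0.088 and at 72 hours against 48 hours it was 0.083, with adjusted p of 0.700 and 0.699. At 72 hours against 0 hours the difference was -1.05 ± 0.17 (adjusted p = 2.42e-05). At 12 hours against 0 hours it was -0.30 ± 0.17 (adjusted p = 0.169), and without replicate 2 at 0 hours it was -0.56, which was called. An exact 2-sided permutation test of 3 against 3 libraries cannot give a p below 0.1, the value it gave wherever groups did not overlap. The SE of the limma differences comes from a spread shared by all 7 groups, so the spread at 0 hours enters every comparison. The SD of the ratio in counts was 0.658 at 0 hours and 0.0152 to 0.0405 in the other groups.

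Taken over 9 late libraries (36, 48 and 72 hours) and 9 early ones (0, 12 and 24 hours), the log2 ratio of alpha to adult beta was -0.43 in the late libraries and 0.27 in the early ones. The late libraries lay between -0.52 and -0.32 and the early ones between -0.27 and 1.25, without overlap. The exact permutation p of this difference of -0.70 was 4.11e-05 (2-sided, the smallest these numbers allow; 0.000123 adjusted over the 3 ratios tested). This test treats the 9 libraries of a side as exchangeable, although they come from different times and same-numbered libraries deviated together in most steps. Its p thus does not measure the spread between replicates of 1 time. The split into late and early was chosen with earlier results of these data known. Without replicate 3 at 48 hours and at 72 hours the difference was -0.69.

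The division of each pair between its genes also differed between times. Hba-a1 held 59.6, 49.7 and 53.0% of the alpha counts in the replicates at 0 hours, 75.5, 72.6 and 73.3% at 12 hours and 53.3, 51.0 and 54.6% at 24 hours. It held 26.4, 28.0 and 26.7% at 36 hours, 24.5, 24.5 and 65.4% at 48 hours, and 34.4, 24.1 and 71.7% at 72 hours. The share was thus highest at 12 hours among the times before 48 hours, and at 48 and 72 hours replicate 3 stood far above the other replicates. Hbb-bs held 50.5, 72.6 and 61.6% of the adult beta counts at 0 hours, 41.4, 43.0 and 41.8% at 12 hours and 57.0, 59.3 and 58.5% at 24 hours. It held 65.7, 66.8 and 66.8% at 36 hours, 71.2, 71.9 and 59.5% at 48 hours, and 84.1, 85.1 and 76.8% at 72 hours. Here replicate 3 stood below the other replicates at 48 and 72 hours. The share of Hbb-bs in the adult beta counts at 72 hours was above that of every library of the other groups. This did not hold in TPM, where it was 70.1% in replicate 3 at 72 hours and 73.7 to 74.9% at 36 hours.

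**Figure D4:**
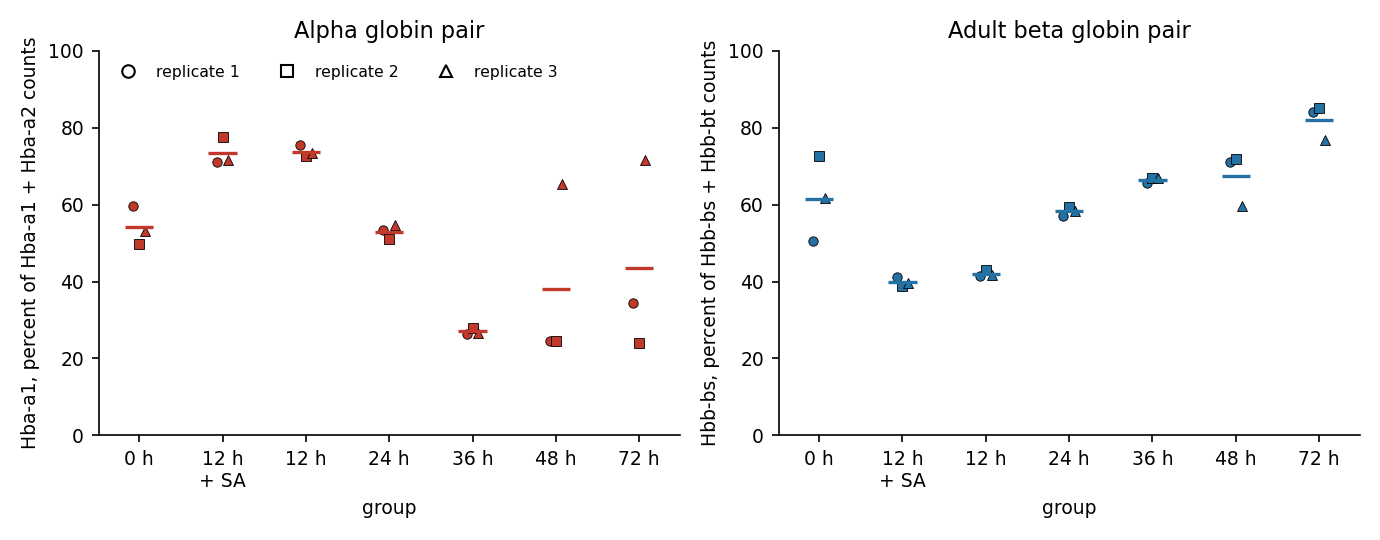
Left, Hba-a1 as a percent of the counts of the alpha pair; right, Hbb-bs as a percent of the counts of the adult beta pair; points are libraries, marker shapes replicate numbers and bars means. Replicate 3 (triangles) at 48 hours and 72 hours lies at 65.4 and 71.7% on the left, where the other replicates lie between 24.1 and 34.4%, and below the other replicates of its time on the right.

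The log2 ratio of Hbb-bs to Hbb-bt averaged -0.46 at 12 hours and 0.71 at 0 hours, a difference of -1.17 ± 0.27 (adjusted p = 0.00215, limma). It differed by 0.94 ± 0.27 at 24 hours against 12 hours (adjusted p = 0.0143), by 1.14 ± 0.27 at 72 hours against 48 hours (adjusted p = 0.00185) and by 1.51 ± 0.27 at 72 hours against 0 hours (adjusted p = 7.16e-05). The steps to 36 hours (0.50, adjusted p = 0.110) and to 48 hours (0.087, adjusted p = 0.816) were not called. From TPM the differences were -1.16 for 12 hours against 0 hours (adjusted p = 0.0936) and 0.97 for 24 hours against 12 hours (adjusted p = 0.189), so the first 2 steps were then not called.

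The log2 ratio of Hba-a1 to Hba-a2 averaged -1.43 at 36 hours and 0.17 at 24 hours, a difference of -1.61 ± 0.64 (adjusted p = 0.0322, limma). It did not pass the threshold from TPM (-1.85, adjusted p = 0.0641), nor in any fit that left out a library of these times. At 12 hours against 0 hours it differed by 1.26 ± 0.64 (adjusted p = 0.119) and at 24 hours against 12 hours by -1.32 ± 0.64 (adjusted p = 0.122), although neither comparison had overlapping libraries. The spread that enters these values is shared by all groups and includes the 2 libraries that stood apart. Without replicate 3 at 48 hours and at 72 hours, adjusted p was 4.67e-05 and 6.72e-05 in these steps and 1.73e-06 at 36 hours against 24 hours. At 72 hours against 0 hours the difference was -0.65 (adjusted p = 0.335), and -1.53 without both libraries (adjusted p = 5.01e-06). At 48 hours against 36 hours it was 0.66 (adjusted p = 0.407), and -0.19 without them. Between the 9 late and the 9 early libraries the Hba-a1 to Hba-a2 ratio differed by -1.51 (exact permutation p = 0.00617) and the Hbb-bs to Hbb-bt ratio by 1.18 (exact permutation p = 0.00148), 0.00617 and 0.00222 after adjustment, with overlap of the groups in both. Without replicate 3 at 48 hours and at 72 hours the differences were -2.08 (adjusted p = 0.000262) and 1.26 (adjusted p = 0.00192), both by exact permutation. These tests also pool different times, with the limit given above.

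Other values of the 2 libraries that stood apart moved with the split. The quotient of count and TPM, set against the median gene of the library, would be the relative length behind the TPM if both tables came from the same counting, which the sources used here do not state. For Hbb-bs this quotient was 0.122 in replicate 3 at 48 hours, against 0.0571 and 0.0575 in the other replicates, and 0.107 in replicate 3 at 72 hours, against 0.0484 and 0.0424. For Hba-a2 it was 0.0992, against 0.0575 and 0.0560, at 48 hours and 0.0885, against 0.0552 and 0.0410, at 72 hours. In the other groups the replicates lay close together, but the value itself was lower at later times: for Hba-a1 it was 0.248 ± 0.00120 at 0 hours, 0.231 ± 0.00426 at 12 hours, 0.112 ± 0.00275 at 36 hours and 0.0752 ± 0.00257 at 72 hours. Over the 548 of 5478 genes with the lowest quotient, the median log2 of the quotient, set against each gene's own mean over the libraries, was -0.12 in replicate 3 at 48 hours and -0.052 in replicate 3 at 72 hours. It was -0.063 in replicate 3 at 12 hours, which did not stand apart in either split, and 0.11 in replicate 2 at 72 hours. The part of these quotients in the split was not tested. The pair sums as shares of counts stood closer to the other replicates: alpha was 10.8% in replicate 3 at 48 hours, against 11.4 and 12.1% in the others, and 15.7% in replicate 3 at 72 hours, against 14.1 and 15.5%.

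Levels of single genes were ordered by TPM. The quotient of count and TPM differed between times and libraries, so an order in TPM need not hold in counts per base of transcript. At 0 hours Hbb-bs (479 ± 274 TPM), Hba-a2 (479 ± 93.0) and Hba-a1 (452 ± 124) did not differ beyond their spread, and Hbb-bt was at 220 ± 29.8. At 12 hours the order was Hba-a1 (12774 ± 1398), Hbb-bt (8634 ± 779), Hbb-bs (7640 ± 485) and Hba-a2 (5880 ± 177), where the SD ranges of Hbb-bt and Hbb-bs met. At 24 hours it was Hbb-bs (52067 ± 4702), Hba-a2 (36533 ± 4304), Hba-a1 (30971 ± 1852) and Hbb-bt (30059 ± 3667), where the last 3 were within their spread of the neighbour. At 36 hours it was Hbb-bs (289640 ± 12833), Hba-a2 (254140 ± 6416), Hbb-bt (99318 ± 1880) and Hba-a1 (59936 ± 1099), each apart from the next. At 48 hours, over all replicates, Hbb-bs was at 313907 ± 106310, Hba-a2 at 222670 ± 108432, Hbb-bt at 126608 ± 60123 and Hba-a1 at 108008 ± 91747, none apart from its neighbour. Without replicate 3 the order was Hbb-bs (378817 and 371684 TPM), Hba-a2 (278276 and 292019), Hbb-bt (95038 and 88845) and Hba-a1 (53504 and 56586), each apart from the next, whereas in replicate 3 Hba-a1 was highest at 213934 TPM. At 72 hours Hbb-bs was highest at 405420 ± 101642 TPM, Hba-a2 was at 220603 ± 113927, Hba-a1 at 146368 ± 126688 and Hbb-bt at 69419 ± 46361, again with no neighbours apart. Without replicate 3 they were Hbb-bs (451606 and 475768 TPM), Hba-a2 (247964 and 318358), Hba-a1 (91792 and 56114) and Hbb-bt (43728 and 41591), each apart from the next, whereas in replicate 3 Hba-a1 was at 291197 TPM and Hbb-bs at 288886 TPM. In counts, Hbb-bs stood above Hba-a1 in replicate 3 at both times. Hbb-bs held 9.01% of all counts there at 48 hours, against 7.07% for Hba-a1. At 72 hours it held 16.3%, against 11.3%. These orders are a description, with no test.

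With the heme block, all 4 adult globins had lower values, but none was called in the fit over all libraries. The alpha pair held 0.608, 0.524 and 0.512% of the counts at 12 hours with SA, against 0.781, 0.680 and 0.677% at 12 hours. The adult beta pair held 0.438, 0.374 and 0.356% at 12 hours with SA, against 0.615, 0.546 and 0.523% at 12 hours. In both pairs every SA library was below every 12-hour library, and replicate 1 was the highest of its group. The log2 change was -0.39 ± 0.17 for alpha (3394 ± 382 CPM with SA, 4458 ± 436 CPM without; adjusted p = 0.737, edgeR) and -0.54 ± 0.22 for adult beta (2412 ± 308 CPM with SA, 3512 ± 350 CPM without; adjusted p = 0.687).

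**Figure D5:**
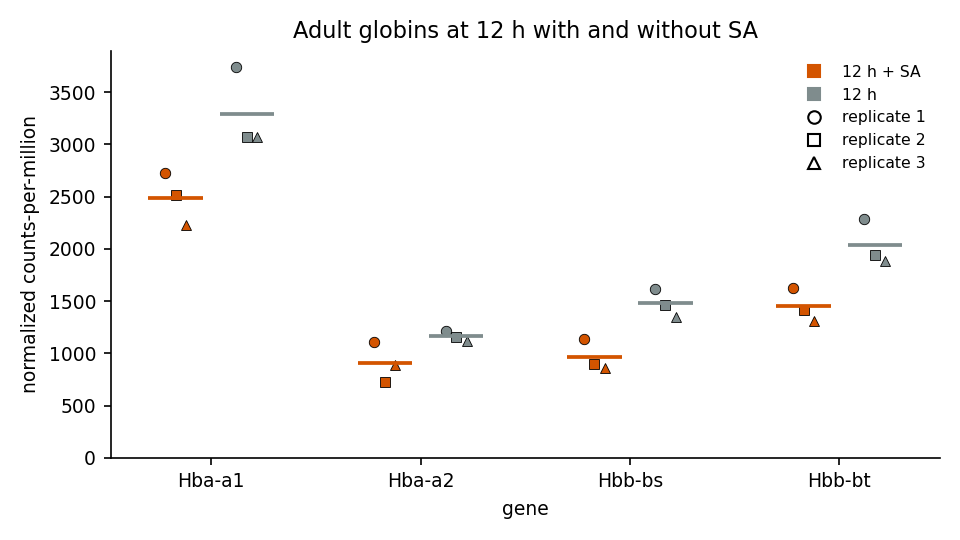
Normalized counts-per-million of the 4 adult globin genes at 12 hours with SA (orange) and at 12 hours (grey); points are libraries, marker shapes replicate numbers and bars means. In each gene the 3 SA libraries lie below the 3 libraries without SA, by the least in Hba-a2, where the highest SA library has 1107 and the lowest 12-hour library 1116.

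By gene the changes were -0.62 ± 0.27 for Hbb-bs, -0.49 ± 0.21 for Hbb-bt, -0.40 ± 0.35 for Hba-a1 and -0.36 ± 0.30 for Hba-a2, with adjusted p of 0.737 to 0.994. Of the 4 genes, 0 were called by edgeR over all libraries, 0 by DESeq2, and 2 had an unadjusted p under 0.05 in edgeR. Over all genes 0.364% were called lower with SA, 45 genes, and leaving out any 1 of the 6 libraries gave 10 to 30 genes. In each of the 4 genes every SA library lay below every 12-hour library, as in 9.86% of all genes tested. When the 6 libraries compared were fitted alone, 3 of the 4 genes and both pairs were called lower, where 3.40% of all genes tested in that fit were (378 genes), alpha with a change of -0.41 (adjusted p = 0.0203) and adult beta with -0.56 (adjusted p = 0.00555). With the replicate number as a block in the fit over all libraries the changes were -0.39 (adjusted p = 0.540) and -0.54 (adjusted p = 0.412). The call thus differed between the fit of these 6 libraries alone and the fit over all 21. These fits differ together in the spread, the genes tested (11115 and 12360), the normalization and the adjustment, and the part of each was not tested. Same-numbered libraries of SA and 12 hours deviated together (r 0.435 to 0.536). The block took each replicate number over all 21 libraries, and a paired fit of these 6 alone was not run.

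The balance of chains at 12 hours with SA was 1.39, 1.40 and 1.44 alpha per adult beta count, against 1.27, 1.24 and 1.29 at 12 hours. The libraries did not overlap, the difference of the log2 ratios was 0.15 ± 0.17 (adjusted p = 1, limma), and the exact permutation test gave the smallest p that 3 against 3 libraries allow, 0.1. The SE of 0.17 comes from the spread shared by all groups, which includes the wide spread at 0 hours. Hbb-bs held 41.2, 38.9 and 39.6% of the adult beta counts with SA and 41.4, 43.0 and 41.8% without, a log2 difference of -0.13 ± 0.27 (adjusted p = 1). Hba-a1 held 71.1, 77.6 and 71.6% of the alpha counts with SA and 75.5, 72.6 and 73.3% without.

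Other genes of hemoglobin production were described by lists. Of 8 genes for the enzymes of heme synthesis in the erythroid lineage, 8 were called higher at 12 hours than at 0 hours, as were 25.3% of all genes. Their median log2 change was 2.21 beside -0.0071 for all genes. The largest was that of Alas2, the erythroid first enzyme of the pathway (4.60 ± 0.17), and the smallest that of Urod (1.53 ± 0.10). At 36 hours against 24 hours, 5 were called higher (34.2% of all genes), with Alas2 up by 3.01 ± 0.16 and the iron-inserting Fech by 1.77 ± 0.12. Alad (-0.49 ± 0.14) and Uros (-0.35 ± 0.07) were among the 39.1% of all genes called lower. At 72 hours against 48 hours, 6 of the 8 were called lower, with Cpox at -1.94 ± 0.16 and Alad at -1.84 ± 0.15, where 34.5% of all genes were; Alas2 (0.025 ± 0.15, adjusted p = 0.900) was not.

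Of the 6 other globin genes, which include the embryonic Hba-x, Hbb-bh1 and Hbb-y, 5 were called higher at 12 hours than at 0 hours (25.3% of all genes). In normalized counts 6 were called higher at 36 hours than at 24 hours (34.2% of all genes). In TPM, Hbb-bh1 was lower at 36 hours (102 ± 53.9) than at 24 hours (146 ± 30.2). Hbb-y was also lower, at 7.55 ± 6.75 TPM against 13.9 ± 3.58, whereas the mean TPM of the other genes of this list was higher. Some counts were small. Over the libraries of a group, Hbb-bh2 summed to 0 at 0 hours and 22 at 12 hours, and Hba-x to 2 and 27. Levels of these 6 genes in TPM were far below the adult genes: the highest group mean of Hbb-bh1 was 146 TPM, at 24 hours, where Hbb-bs had 52067 TPM. In normalized counts Hbb-bh1 was at 0.0905 ± 0.0310 CPM at 0 hours, 13.2 ± 0.935 at 12 hours, 30.8 ± 7.14 at 24 hours, 75.2 ± 38.0 at 36 hours, 54.9 ± 30.1 at 48 hours and 42.4 ± 23.2 at 72 hours. At 12 hours with SA it was at 6.03 ± 0.472 CPM, against 13.2 ± 0.935 at 12 hours, a log2 change of -1.13 ± 0.44 (adjusted p = 0.638). Hbq1b, a theta globin, reached 494 ± 84.5 CPM and 244 ± 61.6 TPM at 72 hours.

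Of 14 regulators of globin transcription, 9 were called higher and 2 lower at 12 hours than at 0 hours, with 25.3 and 27.6% of all genes called in those directions. Sox6 rose by 3.16 ± 0.14, Tal1 by 2.70 ± 0.09 and Nfe2 by 2.35 ± 0.08, all transcription factors of the erythroid lineage. Those called lower were Myb (-3.84 ± 0.21), a factor of progenitors, and Ikzf1 (-1.15 ± 0.12). At 36 hours against 24 hours, 6 were called higher (34.2% of all genes) and 8 lower (39.1% of all genes). A further list of 11 genes held mostly genes that act on heme signalling or protein quality in red cell precursors. Of these, 8 were called higher (34.2% of all genes) and 2 lower (39.1% of all genes) at 36 hours than at 24 hours. The largest rises were Xpo7, a nuclear exporter (6.26 ± 0.13), Ube2o, a ubiquitin ligase that acts on unpaired alpha globin (5.70 ± 0.20), and Ulk1, an autophagy kinase that clears it (4.19 ± 0.17). Those called lower were the chaperones Hsp90aa1 (-1.20 ± 0.12) and Hspa8 (-0.37 ± 0.13).

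With SA, 0 of the 8 heme enzyme genes, 0 of the 6 other globins and 0 of the 14 regulators were called in either direction by edgeR, and 0 of each by DESeq2. In edgeR 1, 2 and 0 of them had an unadjusted p under 0.05, and 0.380% of all genes tested were called in either direction. Of the 11 genes listed mostly for heme signalling and protein quality, 1 was called, Hmox1, with a log2 change of -1.58 ± 0.30 (adjusted p = 0.0195). Hmox1 encodes the heme-degrading enzyme that Bach1 represses when heme is low.

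Over the 21 libraries, the log2 CPM of the 4 adult globins correlated with each other at a Pearson r of 0.959 to 0.995. Of 8997 genes whose mean count reached 100, those with the pattern most like the mean of the 4 were Alas2 (r = 0.998), Grap2 (0.997), Nxpe2 (0.996), Epb42 (0.994) and Tspan33 (0.994). Epb42 encodes a protein of the red cell membrane. The libraries share the time course, so these values are a description of one ordering of 7 groups and carry no test.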

How the data were processed

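The authors deposited estimated counts per gene, without depth scaling (78.5% of values whole), and TPM per gene, for 21 libraries. The tools named in the submitters' processing notes are STAR 2.5.3a, kallisto and DESeq2, with the builds mm10 and GRCm38.p5; which tool made which table is not given. Counts were rounded. Genes passing filterByExpr (minimum count 10; 12360 genes) were fitted with the 2 pair sums added, in 1 edgeR 4.0.16 quasi-likelihood model of 7 groups with TMM, Benjamini-Hochberg adjustment over all rows and a threshold of 0.05 (2-sided). The SE is the log2 change over the square root of F and is approximate. Within-library log2 ratios were fitted in limma 3.58.1 beside log2 CPM of all genes, and tested by exact permutation (scipy 1.17.1). A planned ratio of Ahsp to alpha was not analysed here. The level of a single megakaryocyte marker is not reported here. The text names the members, any gene of the heme and other-globin lists, up to 3 called genes per direction of the other lists, and 5 genes most like the members. Members, lists and the split into late and early libraries were chosen with earlier results of these data known. Replicates are labelled biological, and replicates differed by more than sampling noise (chi-square per gene 6.60 to 270). Same-numbered libraries deviated together over 6753 genes in every pair for 12 hours and 0 hours (r 0.119 to 0.497), 24 hours and 12 hours (0.391 to 0.567), 48 hours and 36 hours (0.156 to 0.538), 72 hours and 48 hours (0.340 to 0.414) and SA and 12 hours (0.435 to 0.536), not for the other comparisons. The pairing comes from the data, since no label explains the numbers. Sequences and positions come from GENCODE M21 (GRCm38) and RefSeq (GRCm38.p6). The fits were tested on simulated data. Alternatives were DESeq2 1.42.0 and its size factors, no filter, library sizes without globins, limma on log2(TPM + 1 or 0.1), a replicate block, the compared libraries alone and each library left out; leaving out both libraries that stood apart was chosen after seeing the data.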

Additional observations from a re-analysis of the deposited data

How the results depend on the processing

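The rises of both pairs up to 36 hours and at 72 hours against 0 hours were called under every alternative run. In limma on TPM, with a pseudocount of 1 or 0.1 or with all genes above 0 in 3 libraries, neither pair was called at 48 hours against 36 hours (alpha 0.073, adult beta 0.17) or 72 hours against 48 hours (0.15 and 0.11), and Hba-a2 had the other sign in these steps (-0.35 and -0.025). Ratios from TPM were not called for Hbb-bs to Hbb-bt at 12 hours against 0 hours (-1.16) and 24 hours against 12 hours (0.97), alpha to adult beta at 24 hours against 12 hours (-0.48) and Hba-a1 to Hba-a2 at 36 hours against 24 hours (-1.85), and Hbb-bs to Hbb-bt had the other sign at 48 hours against 36 hours (-0.20). The compared libraries alone added calls for alpha (-0.41) and adult beta (-0.56) with SA, for Hba-a1 to Hba-a2 at 12 hours against 0 hours (1.26) and 24 hours against 12 hours (-1.32), and for Hbb-bs to Hbb-bt at 36 hours against 24 hours (0.50). Without replicate 3 at 48 hours and 72 hours, alpha (0.45) and adult beta (0.37) were not called at 72 hours against 48 hours, Hba-a1 to Hba-a2 was called at 12 hours against 0 hours (1.26), 24 hours against 12 hours (-1.32) and 72 hours against 0 hours (-1.53), and turned to -0.19 at 48 hours against 36 hours. In all of these the cause was not tested.

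Leaving out 1 library at a time gave -0.56 to -0.50 for alpha to adult beta at 24 hours against 12 hours and -1.66 to -1.56 for Hba-a1 to Hba-a2 at 36 hours against 24 hours, with no fit called, and -0.56 to -0.0018 for alpha to adult beta at 12 hours against 0 hours. Adult beta ranged from 0.58 to 0.71 at 48 hours against 36 hours (lost without replicate 1 or 3 at 36 hours or replicate 2 at 48 hours) and from 0.44 to 0.76 at 72 hours against 48 hours (lost without replicate 1 or 3 at 48 hours or replicate 2 or 3 at 72 hours). Alpha ranged from 0.52 to 0.80 at 72 hours against 48 hours and was called in each fit. Hba-a1 to Hba-a2 ranged from 1.13 to 1.41 at 12 hours against 0 hours, from -1.37 to -1.26 at 24 hours against 12 hours, from -0.18 to 0.071 with SA against 12 hours, from -0.19 to 1.08 at 48 hours against 36 hours, from -0.52 to 1.21 at 72 hours against 48 hours and from -1.53 to -0.034 at 72 hours against 0 hours. Hbb-bs to Hbb-bt ranged from -0.055 to 0.35 at 48 hours against 36 hours. At 72 hours against 48 hours, Hbb-bt ranged from -0.63 to 0.0052 and Hba-a2 from -0.0076 to 0.70. With the replicate block the change with SA was -0.39 for alpha and -0.54 for adult beta, and the block changed no call of a pair, a ratio or a single member gene. It moved the count of all genes called lower with SA to 79, against 45 without the block, and of those called higher to 5, against 2 without it; with no filter on low counts 72 were lower, with DESeq2 125 lower and 25 higher, and with the compared libraries alone 378 lower and 89 higher. Without replicate 3 at 48 hours and 72 hours 64 were lower and 5 higher. Limma gave 14 lower with log2(TPM + 0.1), and with log2(TPM + 1) over all genes 78 lower and 37 higher. Leaving out 1 library gave 10 to 30 lower and 1 higher. The widest 95% interval of a split was 2.54% of the value to either side, but it covers counting error only and counts every read of a pair as assigned to 1 gene, so it understates the error of a split.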
